A study of Pan troglodytes with 8 samples.

Results

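BCL11B-positive neurons (N) were compared with apical radial glia (aRG), 2 of the 4 cell populations sorted from chimpanzee cerebral organoids. The comparison used 4 of the 8 libraries of the series, 2 of each population, and all 35382 genes that passed a filter on low counts in the table counted on the chimpanzee genome. The organoids, self-organised spheres of neural tissue grown from stem cells, were made from SandraA, an induced pluripotent stem cell line of Pan troglodytes, and were collected at week 8 of culture with a window of 3 days either side. Cells were separated by fluorescence-activated sorting into aRG, basal radial glia (bRG), basal intermediate progenitors (bIP) and N, and RNA was sequenced in bulk. The labels name no genotype change and no drug treatment that sets one population apart, and they do not give the gate that defined aRG. Every library derives from this 1 line, and separate cultures for the 2 libraries of a population are nowhere stated. The p-values hence cover the variation among these libraries alone, and it could be technical.

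Apical radial glia are the stem cells of the developing cortex. They line the ventricle, hold together through apical junctions, carry a long process to the outer surface and divide at the ventricle, and signals such as Notch keep them undifferentiated. Their daughters become neurons directly or through basal progenitors, leave the cell cycle, grow an axon and dendrites and build the channels and receptors of an excitable cell. BCL11B (CTIP2) is a transcription factor of neurons in the deep cortical layers that project below the cortex. It defined the sorted neurons, so its own level is a check of the labels and not a result.

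The aRG libraries held 24649971 and 33245892 counts and the N libraries 30320577 and 25324812. Levels are given in CPM, in which a gene's counts are scaled to 1 common library size. Genes at 1 CPM or more numbered 21991 and 20983 in aRG and 18916 and 20065 in N, and the abundant nuclear RNA MALAT1 held 7.52% and 3.61% of counts in aRG against 8.51% and 6.37% in N. The median absolute log2 difference between libraries was 0.40 within aRG and 0.43 within N, against 0.55 between the means of the populations, over genes at 1 CPM or more. The last value compares means of 2 libraries and the others single libraries, so they are not on the same footing. BCL11B stood at 42.9 and 73.9 CPM in the aRG libraries and at 488 and 590 CPM in N. SOX2, a transcription factor of neural stem cells, ran the other way, from 958 and 850 CPM in aRG to 25.0 and 11.7 CPM in N. Both genes separated the populations in the direction of the labels. TUBB3, the neuronal tubulin often used as a marker, was low in this table, at 3.46 and 8.73 CPM in aRG and 21.2 and 15.0 CPM in N, and did not pass the test (edgeR adjusted p = 0.0824). The counts do not mark strand, so reads of overlapping or antisense genes cannot be told apart.

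Neurons and apical radial glia differed in 3421 genes, 9.67% of those tested, by the quasi-likelihood test of edgeR at an adjusted p under 0.05. Of these, 1724 (4.87% of genes tested) were higher in N and 1697 (4.8%) were lower. The falls were larger: the median log2 fold change was 2.15 among the genes that rose and -2.92 among those that fell. A change of more than 8-fold was reached by 465 rises and 805 falls, and more than 32-fold by 70 rises and 299 falls. The calls include 87 falls at 0 in both N libraries and 27 rises at 0 in both aRG libraries. The fitted fold of such genes depends on the prior count and is no bound. In all 3421 genes both libraries of one population lay above both of the other, a pattern that 49.2% of all genes tested showed (23.0% with N above, 26.2% with N below). Among the 12131 genes whose mean reached 10 CPM in N or in aRG, the range of most genes named here, 23.8% differed, 12.8% higher and 11.0% lower. The genes that rose took up 7.48% and 8.55% of scaled counts in aRG and 23.2% and 25.8% in N, whereas the genes that fell took up 13.1% and 14.3% in aRG and 2.55% and 2.22% in N. Scaling by library totals alone gave 3422 genes, of which 37.5% rose rather than 50.4%, and moved the median log2 fold change of all genes from -0.076 to -0.29. Without the first aRG library, 950 genes rose in place of 1724.

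**Figure D1:**
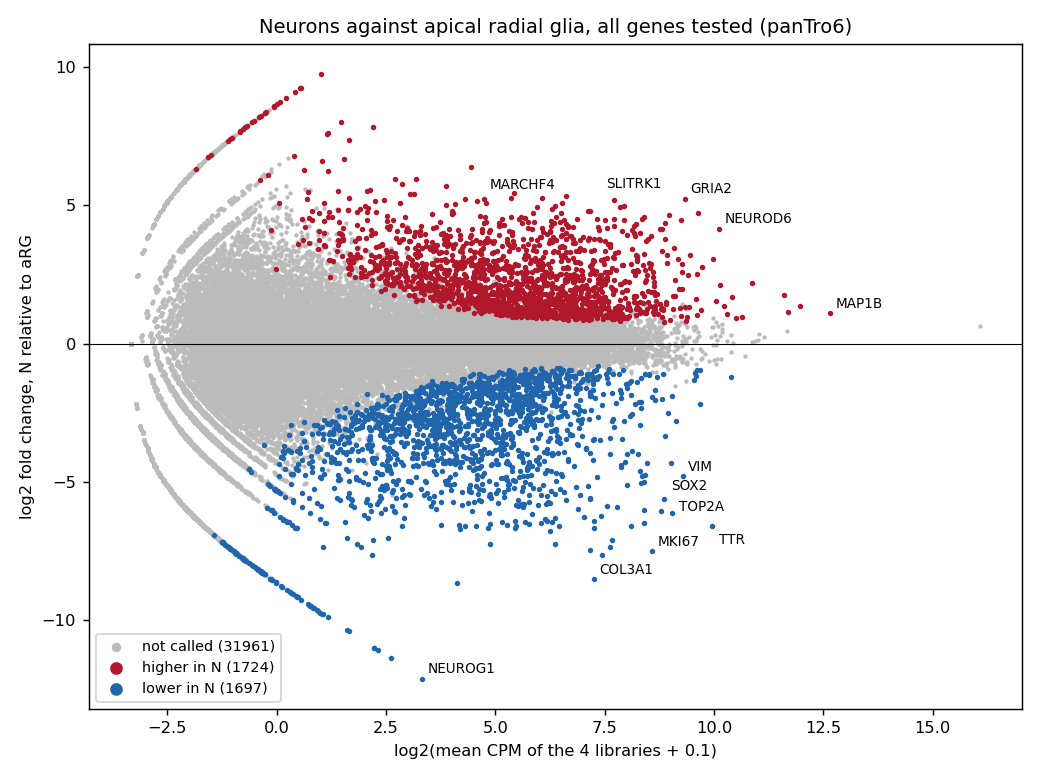
Each point is a gene tested on the chimpanzee genome, with the log2 of its mean CPM over the 4 libraries plus 0.1 on the x axis and its log2 fold change in N relative to aRG on the y axis. Red points are the 1724 genes higher in N, blue points the 1697 lower, and labelled falls such as MKI67 and COL3A1 lie further from 0 than labelled rises such as GRIA2; the outermost curved lines are genes at 0 in both libraries of a population, whose fitted value depends on the prior count and is no bound.

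In the same fit, which shares its libraries between comparisons, the number of genes that differed was 1002 between bIP and aRG (2.83% of genes tested), 900 between N and bIP (2.54%), 2128 between N and bRG (6.01%) and 1 between bRG and aRG (0.00283%). Among the 1724 genes that rose from aRG to N, the mean level was highest in N for 1603 and highest in bIP for 120. Among the 1697 that fell, it was highest in aRG for 1435, in bRG for 170 and in bIP for 92. Measured on log2(CPM + 1), bIP lay closer to N than to aRG for 47.3% of the rises and 56.6% of the falls, and bRG for 7.13% and 5.13%. On that scale bRG lay nearer to aRG for most of these genes, and bIP was divided about evenly. The genes were chosen by the difference between N and aRG in these same libraries, which favours N and aRG as the extremes. No share over all genes tested is given for these placements. Of 21646 genes with a regular symbol 13.1% differed (6.6% higher and 6.52% lower), against 7.2% of antisense-named and 3.52% of LINC-named transcripts, whose median levels were lower.

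The genes with the largest rises encoded receptors, channels, adhesion and secretory proteins of nerve cells. GRIA2, a subunit of the AMPA receptor for glutamate, was at 25.0 and 41.3 CPM in aRG and at 1420 and 1100 CPM in N, a log2 fold change of 5.25 ± 0.41 (SE; edgeR adjusted p = 1.06e-05), the form in which fold changes are given from here on. Its bRG and bIP means, 159 and 425 CPM, lay between those of the 2 populations. GRIK3, a kainate receptor subunit, rose from 3.54 and 6.93 CPM to 73.9 and 283 CPM, a log2 fold change of 5.08 ± 0.75 with N libraries that differed widely. KCNQ5, a potassium channel of the M-current, rose from 1.61 and 1.15 CPM to 15.5 and 89.1 CPM (5.24 ± 1.01). PCDH8, a protocadherin linked to synapses, rose from 1.02 and 2.80 CPM to 89.8 and 78.3 CPM (5.44 ± 0.66), and SLITRK1, a synapse-organising membrane protein, from 3.97 and 18.3 CPM to 464 and 349 CPM (5.18 ± 0.65). CHGA encodes chromogranin A, a protein of dense-core secretory granules, and went from 1.02 and 3.01 CPM to 75.0 and 84.3 CPM (5.29 ± 0.59). Separation of the libraries by population was a condition for naming these genes.

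The remaining large rises were of mixed kind. MARCHF4, a membrane-bound ubiquitin ligase, rose from 2.05 and 7.37 CPM to 177 and 205 CPM (log2 fold change 5.33 ± 0.55), and SLA, an adaptor protein whose locus lies inside another gene, from 1.30 and 5.45 CPM to 105 and 157 CPM (5.26 ± 0.77). RFPL2, of a primate-expanded ring finger family, rose from 2.20 and 0.442 CPM to 38.6 and 53.6 CPM (5.14 ± 0.66). ELOVL3, an enzyme that lengthens fatty acids, reached only 9.24 and 25.0 CPM in N, and its call was lost without the second aRG library (edgeR adjusted p = 0.052). ARHGAP19-SLIT1 (5.20 ± 1.22) is a readthrough that shares exons with SLIT1, which also rose, and their counts cannot be told apart. MIR8485 (5.78 ± 0.76), a microRNA gene, lies inside another transcription unit, so its counts are uncertain in the same way.

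By absolute level, the rises with the largest gain in CPM were cytoskeletal and transcription factor genes. MAP1B, a microtubule-associated protein of growing axons, was already at 4300 and 3860 CPM in aRG and reached 9120 and 8440 CPM in N (log2 fold change 1.11 ± 0.21, edgeR adjusted p = 0.00522, and 0.0518 without the second aRG library). SOX4, a transcription factor of newborn neurons, went from 1290 and 1540 CPM to 5730 and 3890 CPM (1.76 ± 0.25). NFIB, a nuclear factor I protein that acts in cortical projection neurons, went from 633 and 709 CPM to 3270 and 2850 CPM (2.19 ± 0.25). Its relative NFIA rose from 2170 and 1990 CPM to 5170 and 3920 CPM (1.13 ± 0.22), below its bIP mean of 6750 CPM, and was not called without the second aRG library (adjusted p = 0.052). DCX, a microtubule protein of migrating neurons, and NEUROD6, a transcription factor of cortical excitatory neurons, gained more in proportion, with log2 fold changes of 3.07 ± 0.38 and 4.16 ± 0.50. NEUROD6 stood at 65.6 and 169 CPM in aRG and at 2380 and 1820 CPM in N. THSD7A, a membrane protein with thrombospondin repeats, went from 20.8 and 94.7 CPM to 1310 and 1780 CPM (4.74 ± 0.69).

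Of the 12 genes with the largest falls, 6 were genes of cell division or DNA synthesis. MKI67, the proliferation marker Ki-67, stood at 851 and 684 CPM in aRG and at 4.56 and 3.93 CPM in N, a log2 fold change of -7.50 ± 0.42 (edgeR adjusted p = 1.79e-06). RRM2, the cell-cycle-limited subunit of ribonucleotide reductase, was at 287 and 289 CPM in aRG and 1.28 and 1.99 CPM in N (-7.46 ± 0.44). AURKB, a mitotic kinase, was at 394 and 396 CPM against 2.40 and 2.37 CPM (-7.37 ± 0.49). A large fold and separate populations were conditions for naming these genes. The aRG libraries were close together for RRM2 and AURKB and less so for MKI67. TROAP, a spindle-associated protein, KIF18B, a mitotic kinesin, and PBK, a mitotic kinase, fell as well, with log2 fold changes of -7.65, -7.25 and -7.24.

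The falls that were larger still were in other genes. NEUROG1, a proneural transcription factor of progenitors, stood at 17.8 and 21.9 CPM in aRG and was at 0 in both N libraries, at least 162-fold lower by a floor of 3 counts per library. Among counts of this table from 10 to 199, 52.9% to 55.3% were even in these 4 libraries, against 50.1% to 51.5% in the table on the human genome, and if both mates of a read pair were counted the bound would be 81.0-fold. Its highest mean was in bIP, at 59.6 CPM. TCIM, a regulator of Wnt signalling, stood at 38.5 and 30.8 CPM in aRG and at 0.155 and 0 CPM in N (log2 fold change -8.67 ± 0.74). NFATC4, a calcium-regulated transcription factor with a smaller fall, went from 410 and 398 CPM to 2.01 and 3.88 CPM (-7.10 ± 0.38). The pseudogene STX8P1 was at 13.6 and 10.4 CPM in aRG and at 0 in N, at least 97.9-fold lower (49.0-fold if mates were counted separately), although its reads may come from its parent gene.

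COL3A1, a fibrillar collagen of connective tissue, and ISLR, a secreted protein of mesenchymal cells, were also among the largest falls, and here the aRG libraries disagreed. COL3A1 was at 56.3 CPM in the first aRG library and 554 CPM in the second, against 1.04 and 0.604 CPM in N (log2 fold change -8.52 ± 1.26). ISLR was at 3.07 and 20.0 CPM in aRG and its call was lost without the second aRG library (edgeR adjusted p = 0.0807). The same library held the most TTR, the transthyretin gene of choroid plexus: 819 and 3090 CPM in aRG against 15.6 and 24.5 CPM in N (-6.61 ± 0.59). Summed over 16 choroid plexus markers, the level was 1070 and 3390 CPM in aRG and 57.8 and 78.1 CPM in N. Over 19 tested markers of mesenchymal, vascular and immune cells it was 480 and 2120 CPM in aRG and 145 and 130 CPM in N. Both N libraries lay below both aRG libraries for 10 of these 19 and above for 3 (26.2% and 23.0% of all genes). The part of these markers in the other differences was not tested.

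**Figure D2:**
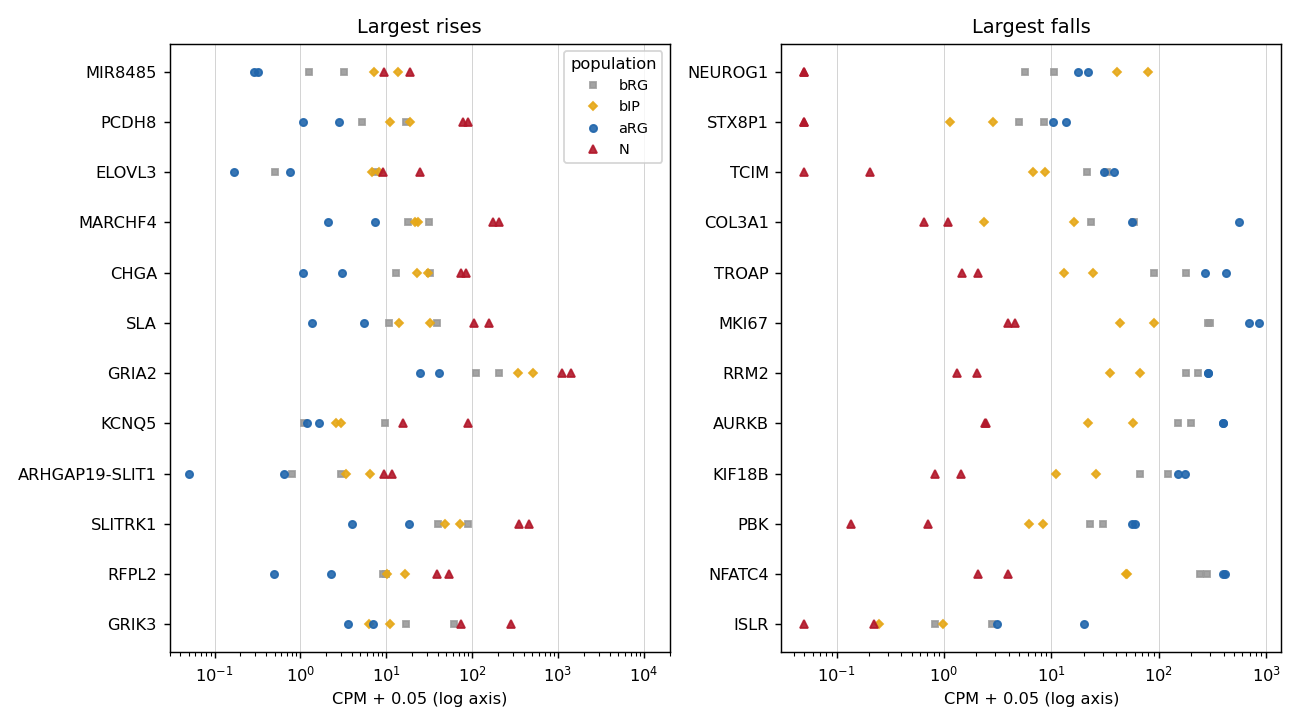
CPM plus 0.05 on a log axis in each of the 8 libraries, for the 12 genes with the largest rise (left) and the 12 with the largest fall (right) in N relative to aRG. Each symbol is a library; genes were chosen for separate N triangles and aRG circles, and COL3A1 and ISLR have widely spaced aRG libraries.

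Markers of radial glia fell as a group. Of 23 tested members of the shared radial glia list, 18 were lower in N and 1 was higher, with a median log2 fold change of -3.47 against -0.076 for all genes. HES1, the main effector of Notch in progenitors, stood at 374 and 226 CPM in aRG and at 4.14 and 2.89 CPM in N (log2 fold change -6.41 ± 0.45). ID4, an inhibitor of proneural factors, went from 655 and 589 CPM to 22.0 and 15.7 CPM (-5.04 ± 0.31), and VIM, the intermediate filament vimentin, from 1120 and 1290 CPM to 54.9 and 32.8 CPM (-4.78 ± 0.32). PAX6, the transcription factor of dorsal progenitors, fell from 228 and 158 CPM to 15.3 and 6.00 CPM (-4.18 ± 0.43). SLC1A3, a glial glutamate transporter, differed widely between the aRG libraries, at 27.1 and 236 CPM, and both N libraries lay below them at 0.773 and 2.16 CPM (-6.49 ± 1.37).

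PTPRZ1, a receptor phosphatase often used as a radial glia marker, was the exception that rose, from 423 and 473 CPM to 1080 and 688 CPM (log2 fold change 0.98), but its call was lost without the first N library (edgeR adjusted p = 0.276), either aRG library (0.223 and 0.108) or the first bIP library (0.0501). LHX2, a homeodomain factor of the cortical primordium, had 1000 and 883 CPM in aRG and 574 and 175 CPM in N and did not pass the test. Basal radial glia markers gave 9 lower and 0 higher of 15, with a median of -1.78. TNC, the matrix protein tenascin C, was at 40.5 and 136 CPM in aRG and at 1.12 and 0.691 CPM in N (-6.59 ± 0.73). HOPX, a homeodomain protein of outer radial glia, was at 41.9 and 49.7 CPM against 2.63 and 0.777 CPM (-4.74 ± 0.52).

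The apical junction and polarity list was divided. Of 22 tested members 7 were lower in N and 3 higher, and the median was -0.39. PROM1, the cholesterol-binding protein of apical protrusions, fell from 64.1 and 62.7 CPM to 3.56 and 2.63 CPM (log2 fold change -4.35 ± 0.37). FAT1, an atypical cadherin, fell from 105 and 112 CPM to 2.98 and 5.05 CPM (-4.76 ± 0.37), and TJP1, the tight junction protein ZO-1, from 104 and 95.2 CPM to 24.4 and 18.7 CPM (-2.21 ± 0.32). FAT4, a related cadherin, rose from 162 and 253 CPM to 530 and 530 CPM (1.35). NUMBL, an adaptor that restrains Notch, and AFDN, the junction protein afadin, also rose, by 1.21 and 0.84. Without the first aRG library 0 of these 3 rises passed the edgeR test (adjusted p = 0.124 for FAT4, 0.0569 for NUMBL and 0.157 for AFDN), and without the second aRG library 1 did. The call of AFDN was also lost without the first N library (0.235) or any 1 bRG or bIP library (0.0647 to 0.0779). N-cadherin (CDH2) stood at 284 and 425 CPM in aRG and 275 and 259 CPM in N, and β-catenin (CTNNB1) at 185 and 243 against 163 and 169 CPM. Neither passed the test.

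In the Notch pathway, in which membrane ligands on a neighbour activate receptors that switch on HES and HEY repressors, 10 of 22 tested genes were lower in N and 2 higher. Receptors fell: NOTCH3 from 321 and 421 CPM to 7.39 and 5.31 CPM (log2 fold change -5.87 ± 0.33), NOTCH1 from 367 and 350 to 70.4 and 37.0 CPM (-2.74), and NOTCH2 from 73.1 and 69.2 to 10.6 and 14.5 CPM (-2.50 ± 0.29). The targets HEY2, HEYL and HEY1 fell by 5.20, 5.48 and 1.69, and LFNG, a glycosyltransferase that modifies Notch, by 4.27. The call of HEY1 was lost without the first aRG library (edgeR adjusted p = 0.234) or either N library (0.077 and 0.146). The 2 rises were both ligands or ligand-like proteins. JAG2 went from 30.7 and 30.2 CPM to 170 and 229 CPM (2.71), and DLL3, which acts within the cell, from 11.5 and 16.5 CPM to 52.2 and 79.1 CPM (2.23). DLL1, the ligand of newborn neurons and progenitors, stood at 120 and 112 CPM in aRG and 85.6 and 60.9 CPM in N and did not pass the test. RBPJ, the DNA-binding partner of the pathway, was at 529 and 500 against 340 and 444 CPM, and did not pass either.

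Wnt genes gave 9 lower and 2 higher of 27, with a median of -0.82. The receptor FZD8 fell from 80.7 and 112 CPM to 1.93 and 1.55 CPM (log2 fold change -5.78 ± 0.38), the transcription factor TCF7L1 from 107 and 96.4 to 2.47 and 4.88 CPM (-4.79 ± 0.37), and SFRP1, a secreted inhibitor, from 360 and 688 to 45.2 and 25.8 CPM (-3.88 ± 0.42). The 2 ligands WNT7A and WNT7B rose, the latter from 21.4 and 47.4 CPM to 155 and 178 CPM (2.27 ± 0.41). The call of WNT7A was lost without the first aRG library (edgeR adjusted p = 0.189) or the second N library (0.0973). Of 15 tested genes of the Hippo pathway, which couples tissue tension and growth, 7 were lower and 0 higher. Its coactivator YAP1 fell from 79.6 and 73.5 CPM to 2.94 and 1.60 CPM (-5.07 ± 0.43). CCN2, a target of YAP1, stood at 13.1 and 6.46 CPM in aRG and was at 0 in N, at least 79.7-fold lower (39.9-fold if mates were counted separately).

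Matrix genes followed the same direction: 16 of 27 tested extracellular matrix and integrin genes were lower and 0 higher, with a median of -2.09. Over the 24 tested on the human genome the median was -1.21. By the chimpanzee counts it was -1.26 over 24 genes, when only symbols present for both genomes were fitted. With 1 CPM added, the median of the 27 was -1.2 between the first libraries and -1.88 between the second. LAMB2, a laminin chain of basement membranes, stood at 246 and 356 CPM in aRG and 3.56 and 2.42 CPM in N (log2 fold change -6.65 ± 0.35). ITGA2, a collagen-binding integrin, went from 135 and 153 CPM to 1.39 and 2.03 CPM (-6.40 ± 0.34). SPARC, a collagen-binding glycoprotein, went from 499 and 808 CPM to 19.1 and 21.7 CPM (-5.00 ± 0.34), and COL4A5, a basement membrane collagen, from 449 and 507 to 24.4 and 25.5 CPM (-4.26 ± 0.26). SPARC and LAMB2 were higher in the second aRG library, the one with the higher summed levels of mesenchymal and choroid plexus markers. ITGB1, the common integrin β chain, was at 88.1 and 124 against 87.8 and 34.5 CPM and did not pass the test.

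Among the 33 gene lists, the mitosis list had the largest share of members that fell. Of its 35 genes 34 were lower in N and 0 higher, with a median of -4.95, and the median was -4.77 between the first libraries of each population and -4.82 between the second. TOP2A, the topoisomerase that untangles chromosomes, was at 1170 and 893 CPM in aRG and 16.5 and 13.3 CPM in N (log2 fold change -6.11 ± 0.33). CENPF, a kinetochore protein, was at 1210 and 752 CPM against 63.8 and 36.0 CPM (-4.30 ± 0.37). CCNB1, the mitotic cyclin, was at 264 and 296 CPM against 4.79 and 6.91 CPM (-5.58 ± 0.32), and NDC80, a kinetochore protein, at 86.3 and 85.6 against 0.967 and 1.04 CPM (-6.42 ± 0.37). NUSAP1, a spindle protein, was the member that did not pass, at 2.40 and 0.973 CPM in aRG. The summed level of the list was 8720 and 7040 CPM in aRG, 3600 and 3380 in bRG, 753 and 984 in bIP and 292 and 234 in N.

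The DNA replication list gave 29 lower and 0 higher of 35, with a median of -2.13, closer to 0 than that of mitosis. ORC1, of the origin recognition complex, went from 42.9 and 56.9 CPM to 0.696 and 1.25 CPM (log2 fold change -5.68 ± 0.47). MCM5, of the replicative helicase, went from 76.5 and 130 CPM to 5.45 and 4.79 CPM (-4.33 ± 0.41), whereas its partner MCM7 stood at 243 and 485 against 220 and 145 CPM and did not pass. In the list of G1 and cell cycle exit genes 6 were lower and 3 higher of 23. CDKN2C, an inhibitor of CDK4 and CDK6, fell from 25.3 and 20.0 CPM to 0.541 and 0.216 CPM (-5.87 ± 0.69), and CDK2, the S-phase kinase, from 36.1 and 38.9 to 5.14 and 1.42 CPM (-3.51 ± 0.53). The rises were CDK5 and its activator CDK5R1, a kinase pair that acts in postmitotic neurons, and the inhibitor CDKN2D. CDK5R1 went from 72.3 and 114 CPM to 652 and 543 CPM (2.68 ± 0.31), and the call of CDK5 was lost without the first aRG library (edgeR adjusted p = 0.0749). CDKN1B and CDKN1C, inhibitors linked to cell cycle exit, did not pass the test, at 60.0 and 65.6 against 57.5 and 39.1 CPM for CDKN1B.

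Genes of intermediate progenitors, the stage between these 2 populations, gave 7 lower and 2 higher of 19, and 4 higher without the second N library. EOMES (TBR2), their defining transcription factor, was at 90.4 and 184 CPM in aRG, 31.2 and 11.0 CPM in N (log2 fold change -2.70 ± 0.53) and a mean of 1450 CPM in bIP. NEUROG2, a proneural factor of cortical progenitors, stood at 131 and 160 CPM in aRG and 281 and 184 CPM in N and did not pass the test. SSTR2, a somatostatin receptor, rose from 36.0 and 73.1 CPM to 257 and 402 CPM (2.59 ± 0.48), below its bIP mean of 763 CPM.

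Neuronal transcription factors rose: 17 of 28 were higher in N and 2 lower, with a median of 1.97. ST18, a zinc finger factor of the MYT1 family, went from 10.1 and 16.9 CPM to 324 and 288 CPM (log2 fold change 4.50 ± 0.46), and MYT1L, which represses non-neuronal genes, from 11.9 and 29.7 CPM to 370 and 425 CPM (4.25). TBR1, a factor of deep-layer and early-born neurons, went from 15.0 and 37.9 CPM to 467 and 440 CPM (4.09 ± 0.47). ZEB2 rose from 39.6 and 57.9 CPM to 755 and 595 CPM (3.79 ± 0.33) while its paralogue ZEB1, a progenitor factor, fell from 114 and 89.1 CPM to 25.0 and 11.9 CPM (-2.46). PROX1, the other fall in this list, went from 42.8 and 16.7 CPM to 2.47 and 2.33 CPM (-3.63 ± 0.56). SOX11 and NEUROD1 did not pass the test, with NEUROD1 at 9.72 and 14.8 CPM in aRG and 64.7 and 19.6 CPM in N.

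Deep-layer genes gave 12 higher and 6 lower of 22, with a median of 1.66. The 12 and the median include BCL11B, which defined the sorted neurons and is not a result. Besides BCL11B and TBR1, the rises included FEZF2, the selector gene of subcortical projection neurons, from 239 and 193 CPM to 474 and 465 CPM (log2 fold change 1.12, with edgeR adjusted p = 0.0512 and 0.136 without the first and the second aRG library), and SOX5, a regulator of deep-layer migration, from 61.4 and 58.8 to 219 and 346 CPM (2.23). SYT4, a synaptotagmin of secretory vesicles, went from 14.3 and 40.6 CPM to 669 and 581 CPM (4.51). The 6 that fell were TSHZ2, ETV1, TLE4, CRYAB, FOXP1 and PCP4, the last with a call lost without the second aRG library (edgeR adjusted p = 0.209) or either N library (0.117 and 0.0792). TSHZ2 was at 173 and 127 CPM in aRG and 3.40 and 2.16 CPM in N (-5.75 ± 0.42), and ETV1 at 76.3 and 66.9 against 3.02 and 4.27 CPM (-4.30 ± 0.35). FOXP1, a forkhead factor also present in progenitors, was at 368 and 374 against 103 and 168 CPM (-1.46).

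Of 15 upper-layer genes 3 were higher and 1 lower, where 12.8% and 11.0% were among all genes reaching 10 CPM. On the human genome 3 were lower, and with DESeq2 4. Both N libraries lay above both aRG libraries for 5 and below for 6 (23.0% and 26.2% of all genes). The median was 0.72 by the fit. With 1 CPM added, it was -0.083 between the first libraries and 0.15 between the second. PLXND1, a semaphorin receptor, rose from 19.2 and 32.2 CPM to 326 and 351 CPM (log2 fold change 3.72 ± 0.47), and BHLHE22, a basic helix-loop-helix transcription factor, from 26.1 and 35.1 to 836 and 212 CPM (4.10 ± 0.53). RORB, of layer 4, rose from 40.6 and 30.4 CPM to 72.7 and 82.0 CPM (edgeR adjusted p = 0.0219). POU3F3 fell from 144 and 79.0 CPM to 50.8 and 13.9 CPM (adjusted p = 0.0435). Both of those calls were lost without the first aRG library, at adjusted p = 0.0609 and 0.164, and without the second N library, at 0.11 and 0.155, and that of RORB without the second aRG library too, at 0.209.

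Markers of Cajal-Retzius cells, the reelin-secreting neurons of the outermost layer, gave 2 higher and 3 lower of 14, and 5 lower without the first N library. The rises were TBR1 and CALB2, the calcium-binding protein calretinin, which went from 12.7 and 26.4 CPM to 334 and 376 CPM (log2 fold change 4.18 ± 0.56). RELN itself stood at 12.2 and 17.4 CPM in aRG and 60.6 and 13.3 CPM in N and did not pass. Of 16 markers of GABAergic neurons 0 were higher and 2 lower, and 4 lower without the second N library. The GABA-synthesising enzymes GAD1 and GAD2 were at most 3.54 CPM in every one of the 4 libraries, and the vesicular GABA transporter SLC32A1 at most 0.59 CPM. PROX1, described above, was among the 2 that fell.

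**Figure D3:**
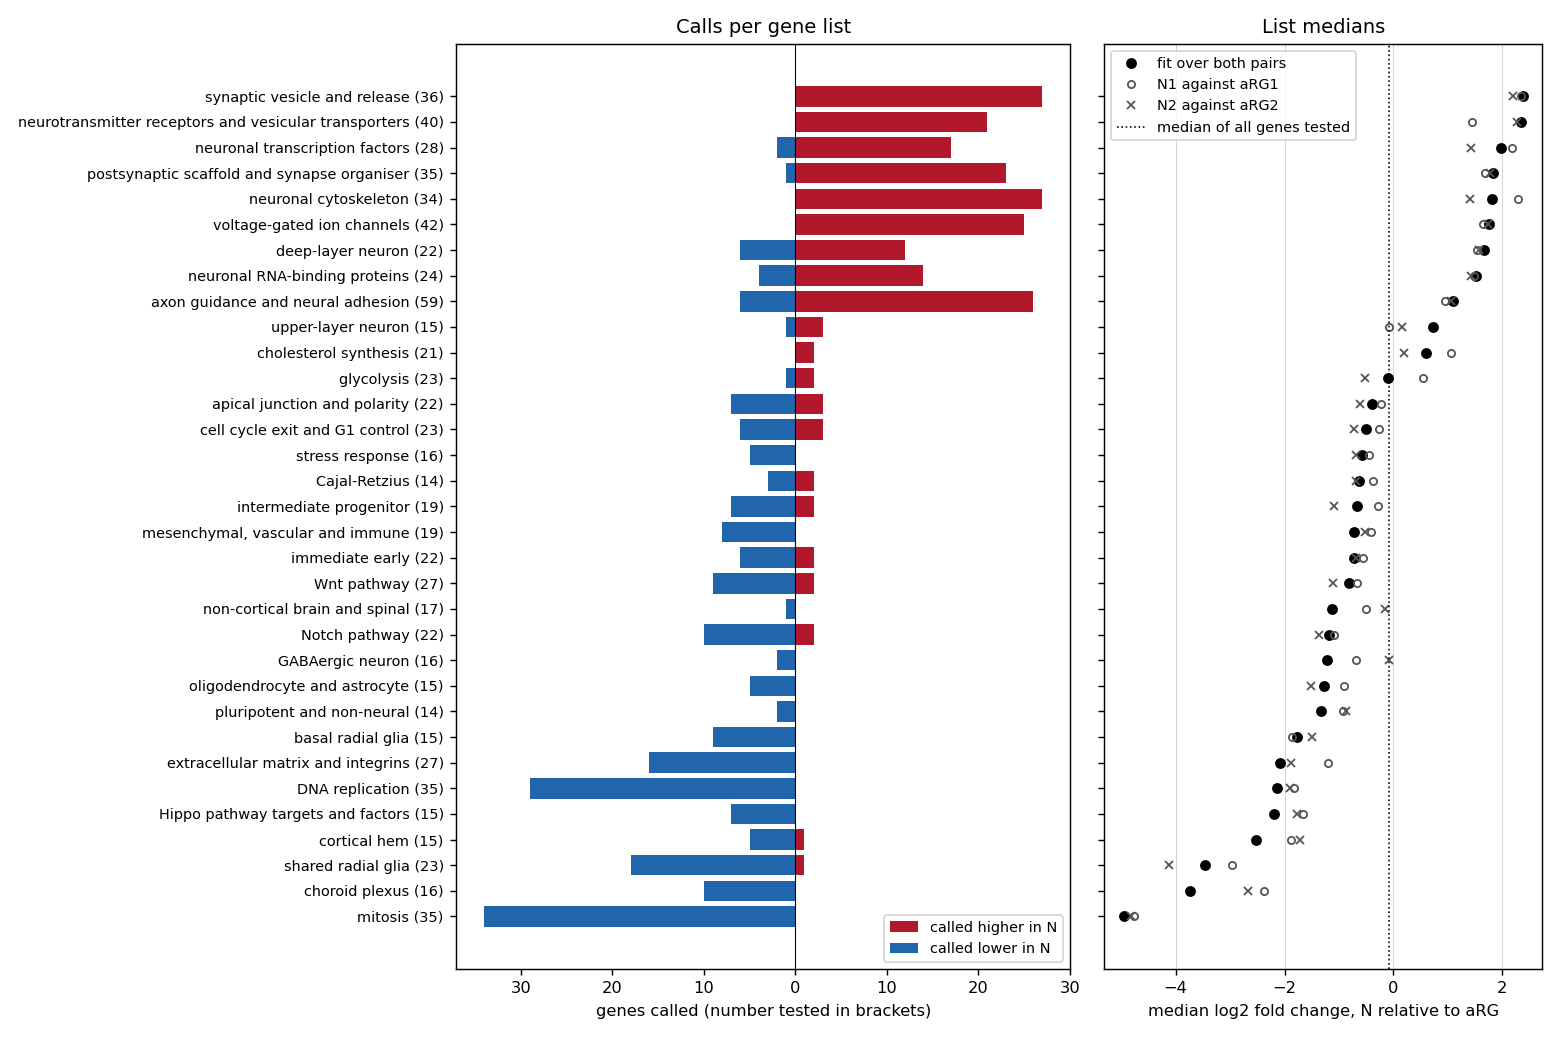
Left, number of genes called higher (red, right of 0) and lower (blue, left of 0) in N for each of 33 gene lists, with the number tested in brackets; right, the median log2 fold change of each list from the fit (filled) and between same-numbered libraries (open circle and cross). By the fit, synaptic vesicle and neurotransmitter receptor lists lie at the top, at medians of 2.37 and 2.35, and mitosis at the bottom at -4.95. The open circle of the receptor list lies lower, at 1.45, and the glycolysis marks lie on both sides of 0.

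The cytoskeleton of neurons rose broadly. Of 34 tested genes 27 were higher and 0 lower, with a median of 1.81, and the summed level of the list was 10400 and 13000 CPM in aRG and 35900 and 29900 CPM in N. MAPT, the axonal protein tau, went from 60.2 and 121 CPM to 949 and 1050 CPM (log2 fold change 3.46), and STMN2, a stathmin of growth cones, from 42.8 and 88.3 CPM to 759 and 470 CPM (3.23 ± 0.40). ANK3, the ankyrin that assembles the axon initial segment, went from 30.4 and 43.6 CPM to 335 and 275 CPM (3.04 ± 0.33). GPM6A, a membrane protein of filopodia, went from 193 and 277 to 1510 and 1160 CPM (2.51 ± 0.30). TUBA1A, an α-tubulin, passed at an edgeR adjusted p of 0.0327 but lost its call without the first aRG library (0.231) or the first N library (0.194), and tubulin genes have near-identical relatives among which reads can be divided. The neurofilament genes NEFL and NEFH stayed below 4 CPM in all 4 libraries and did not pass.

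RNA-binding proteins changed in both directions, with 14 of 24 higher and 4 lower. RBFOX2, a splicing factor, rose from 156 and 194 CPM to 946 and 1160 CPM (log2 fold change 2.59 ± 0.29). SRRM3, an activator of neuronal microexons, rose from 12.9 and 9.99 CPM to 172 and 195 CPM (4.00 ± 0.40), and its relative SRRM4 from 20.5 and 53.5 to 584 and 521 CPM (3.90). CELF4 and CELF6, regulators of mRNA processing, rose by 3.94 ± 0.42 and 3.90 ± 0.38. The falls were MSI1 and MSI2, the Musashi proteins of stem cells, QKI, a regulator of glial splicing, and LIN28A, a developmental timing factor. MSI2 was at 457 and 399 CPM in aRG and 166 and 73.2 CPM in N (-1.84). Without the second N library 2 of the 4 falls passed the test.

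Genes of the presynaptic terminal gave 27 higher and 0 lower of 36, with a median of 2.37. SYT1, the calcium sensor of vesicle fusion, was at 92.0 and 94.6 CPM in aRG and 704 and 1040 CPM in N (log2 fold change 3.23 ± 0.33). SNAP25, a core protein of the fusion machinery, was at 5.78 and 14.1 against 197 and 254 CPM (4.50), and SYP, the vesicle protein synaptophysin, at 33.2 and 65.8 against 523 and 783 CPM (3.72 ± 0.42). PCLO, an active-zone scaffold, was at 74.1 and 49.4 against 479 and 600 CPM (3.13 ± 0.33). DNM1, the dynamin of vesicle recycling, and NSF, which takes the fusion complex apart, did not pass, at 224 and 185 against 358 and 342 CPM for DNM1.

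On the postsynaptic side and among synapse organisers 23 of 35 were higher and 1 lower, with a median of 1.82, and 15 were higher without the first aRG library. CAMK2B, a calcium-dependent kinase of synapses, went from 12.6 and 24.1 CPM to 257 and 372 CPM (log2 fold change 4.10), and DLG2, a postsynaptic scaffold, from 21.8 and 19.0 to 149 and 175 CPM (2.99 ± 0.34). LRRC4C, a ligand of netrin-G1, was the 1 that fell, from 52.1 and 47.4 CPM to 7.58 and 5.96 CPM (-2.88 ± 0.32). DLG4 (PSD-95), the main scaffold of excitatory synapses, was at 21.1 and 22.3 against 41.5 and 39.9 CPM and did not pass.

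Receptors and vesicular transporters for neurotransmitters gave 21 higher and 0 lower of 40, with a median of 2.35. It was 1.64 over the 37 tested on the human genome. By the chimpanzee counts it was 2.08 over 37 genes, when only symbols present for both genomes were fitted. With 1 CPM added, the median of the 40 was 1.45 between the first libraries and 2.26 between the second. Beside GRIA2, the AMPA receptor subunits GRIA1 and GRIA3 rose, GRIA1 from 33.8 and 63.2 CPM to 498 and 1210 CPM (log2 fold change 4.14). The NMDA receptor subunit GRIN2B, typical of young neurons, went from 6.10 and 26.6 CPM to 215 and 264 CPM (3.87), whereas GRIN2A, typical of mature ones, was at 11.1 and 25.6 against 25.2 and 38.6 CPM and did not pass. Both vesicular glutamate transporters rose, SLC17A6 from 5.59 and 8.90 CPM to 55.3 and 64.2 CPM (3.04 ± 0.34) and SLC17A7 from 19.0 and 45.2 CPM to 291 and 433 CPM (3.49). Among GABA-A receptor subunits, GABRA2 rose from 17.9 and 15.9 CPM to 118 and 105 CPM (2.72 ± 0.30), and GABRA3 and GABRB2 rose as well. The call of GABRB2 was lost without the second aRG library (edgeR adjusted p = 0.0768) or the second N library (0.136).

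Voltage-gated channels gave 25 higher and 0 lower of 42, with a median of 1.76. SCN2A, the sodium channel of early axon initial segments, went from 16.8 and 18.8 CPM to 399 and 410 CPM (log2 fold change 4.50 ± 0.45), with libraries that nearly coincided within each population. SCN3A, the fetal sodium channel, went from 17.4 and 27.8 to 232 and 243 CPM (3.39 ± 0.33), and the β-subunit SCN3B from 25.3 and 32.3 to 532 and 571 CPM (4.26 ± 0.40). SCN1A, the channel of later stages, was at 20.5 and 9.79 against 13.8 and 5.27 CPM and did not pass. Among calcium channels, CACNA1E rose from 5.47 and 23.3 CPM to 279 and 620 CPM (4.96), and CACNA1A from 60.7 and 73.0 CPM to 462 and 614 CPM (3.01).

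Axon guidance and adhesion genes gave 26 higher and 6 lower of 59, with a median of 1.10. SLIT1, a repellent ligand, went from 37.4 and 56.2 CPM to 779 and 862 CPM (log2 fold change 4.13 ± 0.37), whereas its receptors ROBO1 and ROBO2 did not pass the test. DCC, a netrin receptor, rose from 6.69 and 8.96 CPM to 92.2 and 74.5 CPM (3.41). L1CAM, an axonal adhesion molecule, rose from 47.9 and 79.1 to 803 and 966 CPM (3.80 ± 0.38), and CNTN1, a contactin, from 7.32 and 12.3 to 175 and 176 CPM (4.16 ± 0.42). The neuropilins parted: NRP2 rose from 24.8 and 40.5 CPM to 310 and 229 CPM (3.04 ± 0.33) and NRP1 fell from 22.0 and 25.0 CPM to 10.9 and 6.09 CPM (-1.47), a call lost without the second aRG library (edgeR adjusted p = 0.0857) or the second N library (0.181). EFNB1, an ephrin ligand of progenitors, fell from 684 and 1010 CPM to 200 and 95.1 CPM (-2.52). The number of rises was 15 without the first aRG library, and the number of falls 2 without the second aRG or the second N library.

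**Figure D4:**
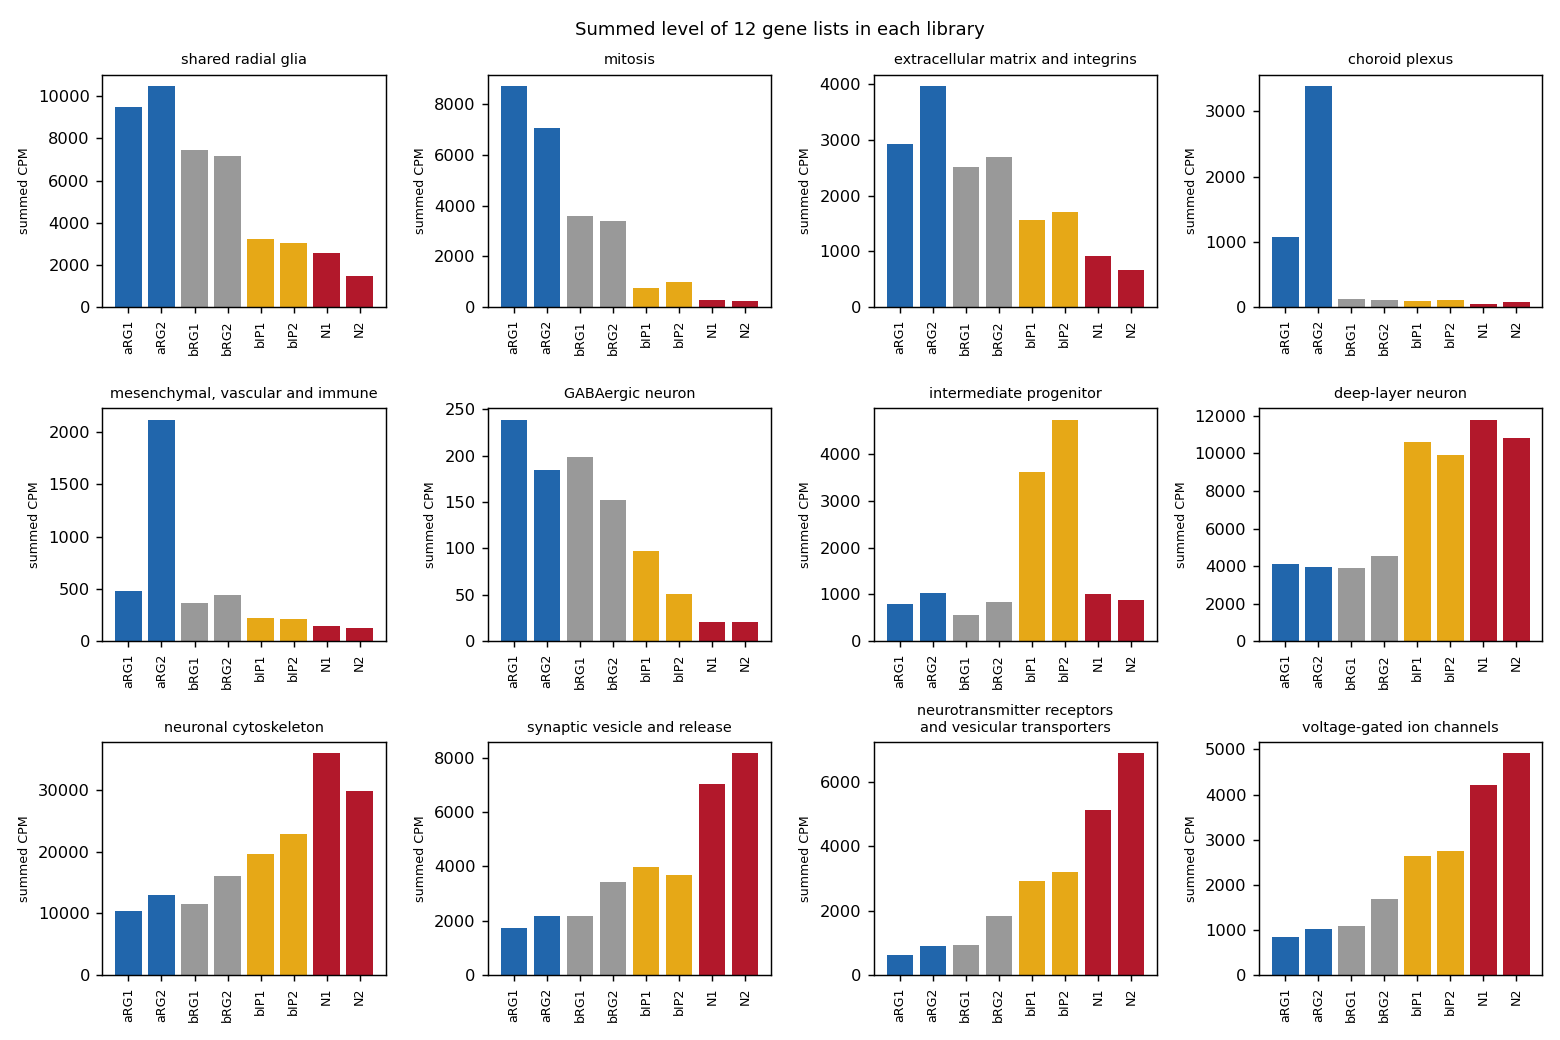
Bars give the summed CPM of the tested members of 12 gene lists in each of the 8 libraries, on axes that start at 0. Untested members are left out. Colours mark aRG (blue), bRG (grey), bIP (yellow) and N (red). Synaptic, receptor and channel lists are highest in both N libraries, intermediate progenitor genes in bIP, and the choroid plexus and mesenchymal lists in the second aRG library.

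In 21 pairs of related genes, one was taken as broadly or progenitor expressed and the other as neuronal. The neuronal member rose in 14 and the broad member fell in 5. Both members rose in 2 pairs, STMN1 with STMN2 and DPYSL2 with DPYSL3. PTBP1, CCND1 and ACTL6B were not tested on the chimpanzee genome. CCND2, entered as a neuronal member, fell in N on the human genome, as given below. In 4 pairs the members changed in opposite directions. Of the β-tubulins, TUBB4B went from 487 and 557 CPM to 161 and 82.5 CPM (log2 fold change -2.10 ± 0.32) and TUBB4A from 13.6 and 28.1 CPM to 105 and 104 CPM (2.33 ± 0.41).

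Another of the opposite pairs belongs to the BAF chromatin remodelling complex, which exchanges subunits when progenitors become neurons. SS18 was at 51.9 and 61.7 CPM in aRG and 20.5 and 25.5 CPM in N (log2 fold change -1.30 ± 0.30, edgeR adjusted p = 0.0142). SS18L1 (CREST) was at 66.5 and 78.1 against 141 and 122 CPM (0.86 ± 0.24, adjusted p = 0.043), and its call was lost without any 1 of the 8 libraries, at adjusted p = 0.0731 to 0.314. That of SS18 was lost without the second aRG library (0.0821) or the first N library (0.086). DPF1, another neuronal subunit, rose from 19.2 and 49.2 CPM to 208 and 335 CPM (2.99 ± 0.57), and its progenitor counterpart PHF10 did not pass, at 105 and 95.4 against 63.5 and 58.0 CPM.

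Genes of glycolysis and cholesterol synthesis differed about as often as all genes tested (9.67%) or those with a regular symbol (13.1%). Glycolysis genes gave 2 higher and 1 lower of 23 with a median of -0.10, and 0 higher and 4 lower without the first aRG library. ENO2, the neuronal enolase and 1 of the 2 rises, lost its call without the first aRG library (edgeR adjusted p = 0.376), either N library (0.134 and 0.093) or either bIP library (0.0618 and 0.0617). GAPDH was at 379 and 1030 CPM in aRG and 396 and 399 CPM in N, and the summed list at 2470 and 6420 against 3660 and 4150 CPM, so that the aRG libraries lay on either side of N. SLC16A1, a lactate transporter, fell from 80.3 and 117 CPM to 35.8 and 26.7 CPM (log2 fold change -1.66 ± 0.29). PFKM, the muscle-type phosphofructokinase, rose from 79.3 and 91.9 CPM to 201 and 197 CPM (1.22 ± 0.24), a call lost without the first aRG library (edgeR adjusted p = 0.0845). Cholesterol synthesis genes gave 2 higher and 0 lower of 21, and 4 higher without the second N library. The median of these 21 was 0.60. Both N libraries lay above both aRG libraries for 13 of them and below for 0 (23.0% and 26.2% of all genes). MVD, a decarboxylase of the mevalonate pathway, was at 364 and 390 CPM in aRG and 1709 and 625 CPM in N (log2 fold change 1.63 ± 0.47, edgeR adjusted p = 0.0499). Its call was lost without the first N library (adjusted p = 0.393) or without either aRG library (0.166 and 0.117).

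Immediate early genes, which respond within minutes to stimulation or handling, gave 6 lower and 2 higher of 22, and 3 lower without the second N library. EGR1 was at 263 and 59.1 CPM in aRG and 5.61 and 6.99 CPM in N (log2 fold change -4.68 ± 0.76), and FOS at 61.0 and 37.2 against 5.07 and 0.906 CPM (-4.03 ± 0.76). JUN, a subunit of the AP-1 factor, and NR4A3, an orphan nuclear receptor, were the rises, with that of JUN lost without the first N library (edgeR adjusted p = 0.111) or either aRG library (0.0794 and 0.0655). NR4A3 went from 5.07 and 3.24 CPM to 66.3 and 43.7 CPM (3.73 ± 0.49). Of 16 stress response genes 5 were lower and 0 higher, and 3 lower without either aRG library. XBP1, a factor of the unfolded protein response, fell from 95.8 and 92.3 CPM to 24.5 and 29.4 CPM (-1.80 ± 0.31), and DDIT3 (CHOP), a factor of stress-induced apoptosis, from 82.9 and 67.6 to 20.6 and 15.0 CPM (-2.08 ± 0.38).

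Genes listed as markers of other cell types were higher in aRG where they differed, apart from WNT7B of the cortical hem list, described above. These lists are not exclusive of radial glia: DKK3 is in both the cortical hem and the shared radial glia list. Choroid plexus markers gave 10 lower in N and 0 higher of 16, with a median of -3.74. It was -2.93 over the 15 tested on the human genome. By the chimpanzee counts it was -2.98 over 15 genes, when only symbols present for both genomes were fitted. With 1 CPM added, the median of the 16 was -2.37 between the first libraries and -2.67 between the second. Besides TTR these included OTX2, a transcription factor, at 28.9 and 27.5 CPM in aRG against 1.01 and 0.647 CPM in N (log2 fold change -5.08 ± 0.78). The cortical hem list, a signalling centre beside the cortex, gave 5 lower and 1 higher of 15. Its member BMP7 was at 73.5 and 89.3 against 2.55 and 2.76 CPM (-4.93 ± 0.41). Mesenchymal, vascular and immune markers gave 8 lower of 19, led by collagens, while the endothelial genes CDH5 and KDR and the microglial genes CSF1R and P2RY12 did not pass the test. Oligodendrocyte and astrocyte markers gave 5 lower and 0 higher of 15. GFAP, the glial filament, was at 37.6 and 20.5 CPM in aRG and OLIG2, the oligodendrocyte factor, at 0.787 and 1.06 CPM. The bRG mean of GFAP was 28.5 CPM. Non-cortical markers gave 1 lower (TCF7L2) of 17, and pluripotency and non-neural markers 2 lower (MITF and LIN28A) of 14. The call of MITF was lost without the first N library (edgeR adjusted p = 0.169) or the first aRG library (0.171), and LIN28A without either N library (0.147 and 0.107), the second aRG library (0.216) or either bRG library (0.0532 and 0.0534). In bulk RNA, fewer cells of a type and less RNA per cell cannot be told apart.

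The same libraries were also counted on the human genome, which shares RNA and reads with the first table and is no independent evidence. There 3145 of 16353 genes differed (19.2%), 1577 higher (9.64%) and 1568 lower (9.59%) in N. Of the chimpanzee calls, 2585 had a symbol tested there, and 2550 of them (98.6%) were called in the same direction, 83.2% of the human-table calls tested on both. None was called in the opposite direction. The median absolute difference in log2 fold change was 0.06. ZNF347, a zinc finger gene, was the 1 call with an opposite sign, at -3.55 on the chimpanzee and 0.71 on the human genome. The gap junction gene GJA1 had -5.98 against -2.66 and the separase gene ESPL1 -3.60 against -5.35. A further 836 calls, 255 of them with regular symbols such as DCX, SYN1, SYP and L1CAM, had no symbol in the human table.

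**Figure D5:**
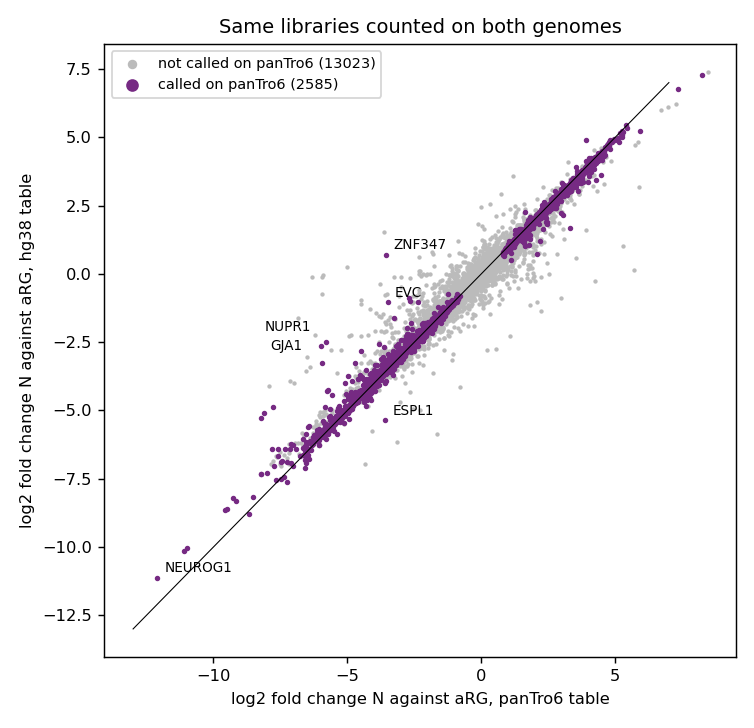
Log2 fold change in N relative to aRG for 15608 genes tested on both genomes, chimpanzee on the x axis and human on the y axis, with the line of equality. The 2585 genes called on the chimpanzee genome (purple) lie along the line, apart from a few such as ZNF347, GJA1 and ESPL1.

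The human table also held genes that had no or few counts on the chimpanzee genome. Of genes called in the human table, 79 were not tested on the chimpanzee genome and 65 of these were at 0 in all of its libraries. Of the genes in the lists and pairs, 21 were either not tested on the chimpanzee genome or had under 10% of their human-table level there, and 14 of them differed on the human genome, 5 higher and 9 lower. ACTL6B, the neuronal BAF subunit BAF53B, rose from 9.06 and 15.9 CPM to 155 and 224 CPM (log2 fold change 3.92 ± 0.54, edgeR adjusted p = 0.000581). PTBP1, the splicing repressor whose loss accompanies neuronal differentiation, fell from 238 and 240 CPM to 111 and 114 CPM (-1.09 ± 0.21, adjusted p = 0.00446). HES5, a Notch target, fell from 107 and 33.4 CPM to 2.72 and 0.705 CPM (-5.33 ± 1.03). The G1 cyclin genes CCND1 and CCND2 fell too, CCND2 from 540 and 412 CPM to 163 and 101 CPM (-1.85 ± 0.30). NEFM, a neurofilament subunit, rose from 12.8 and 17.4 CPM to 76.5 and 66.3 CPM (2.24 ± 0.51). KIF1A, an axonal motor of synaptic vesicle precursors, was at 643 and 577 CPM in aRG and 953 and 870 CPM in N on that genome and did not pass the test.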

How the data were processed

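Bulk RNA-seq of 4 sorted cell populations from chimpanzee organoids was used, 2 libraries of each. The values are raw, whole-number counts that the authors deposited by gene symbol in separate files for the builds panTro6 and hg38. STAR is the aligner listed per the submitters' processing notes. The gene annotation, the program that counted reads and whether it used strand are each not given in the sources used here. Per the labels' protocols, libraries followed a Smart-seq2 type method with a transposome, which does not mark strand, and no molecular identifiers are named, so counts include PCR copies. There were 60583 named rows on panTro6 and 18137 on hg38. A row with no gene name, 0.00548% to 0.00677% of counts in the N and aRG libraries, was left out. The tables give symbols without positions, so no coordinates are printed.

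Library totals were 24649971 and 33245892 counts for aRG and 30320577 and 25324812 for N, and the chi-square per gene between the pair of libraries was 73.5 in aRG and 69.6 in N, where counting error alone would give about 1. Genes were filtered with filterByExpr and scaled by TMM, and 1 model over all 8 libraries was fitted in edgeR 4.0.16 (R 4.3.3) and tested by quasi-likelihood (two-sided, 4 residual degrees of freedom, Benjamini-Hochberg adjustment over 35382 genes, threshold 0.05). The 4 populations share 1 estimate of spread because 2 libraries per population leave few degrees of freedom. Levels are TMM-scaled CPM, and standard errors come from the F statistic. Where a population had 0 counts of a gene, its fold is a bound from a floor of 3 counts per library, which covers counting error only. The model was tested on simulated data.

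Named genes were the 12 largest rises and falls in fold and the 8 largest in CPM among called genes with at least 10 CPM in the higher population, separated libraries and a regular symbol. To these were added up to 4 called members of each list, 7 identity genes and gene pairs with opposite calls, and genes named beyond this rule were chosen after their values were seen. The 33 lists (790 genes, 766 of them tested), the pairs and the comparison itself were chosen with earlier results of these data known. The lists were given no test of their own and are described by counts. Whether loci overlap was looked up among RefSeq genes (assembly NHGRI_mPanTro3-v2.0), from which nothing else was taken. Alternatives were DESeq2 1.42.0, other scalings and filters, a fold threshold, halved counts, the hg38 table, fewer libraries and a replicate block. Some members of the lists and pairs are not reported here by name.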

Additional observations from a re-analysis of the deposited data

How the results depend on the processing

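Of 3421 genes that differed, 1724 rose and 1697 fell. DESeq2 called 5221 genes, with 2701 lower. A test against a 2-fold change called 1667, with 723 higher and 944 lower. Leaving out 1 library at a time gave 2382 to 3540 genes, 950 to 1752 higher and 1222 to 1806 lower, with the fewest rises (950) without aRG replicate 1. No called gene changed sign in these fits or with other scalings and filters, and 1 did on the human genome. The replicate block gave 4960 genes, 2613 higher and 2347 lower. The labels do not say what a shared replicate number means, and with 2 numbers the data cannot settle it. Deviations of same-numbered libraries correlated at r = 0.145 across 21663 genes between aRG and N and at 0.145 to 0.316 over the 6 pairs of populations. The third principal component was 30.8 to 59.6 in replicate 1 and -47.2 to -35.0 in replicate 2 libraries, a hint of a shared effect from the data, not from the design. Over the 156 genes named by the stated rule and 3257 checks, 3161 gave the same call, 92 in 22 genes lost it, 4 gained it (all TUBB3) and 0 reversed. Genes named beyond that rule are not in these numbers, and several of them lost calls too, such as FAT4, PTPRZ1 and HEY1. The glycolysis median (-0.10) turned to 0.0364 with the replicate block and to 0.69 without aRG replicate 2 (range -0.573 to 0.69 with 1 library left out). The non-cortical median (-1.12) turned to 0.0249 without aRG replicate 1 (range -2.12 to 0.0249). The cause of these changes was not tested. With 2 libraries per population, a library left out leaves a lone one that is assumed to vary like the others.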
